A study of Mus musculus with 12 samples.

Results

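The NRF2 antioxidant genes are a set of 10 genes, chosen by name: Nfe2l2, Nqo1, Hmox1, Gclc, Gclm, Txnrd1, Srxn1, Slc7a11, Gsr and Prdx1. All 10 were among the 20661 genes counted, and their RNA and ribosome footprints were followed through 12 libraries of mouse embryonic fibroblasts (MEFs). Nfe2l2 encodes NRF2, a transcription factor that the KEAP1-CUL3 ubiquitin ligase marks for destruction in unstressed cells. When oxidants or electrophiles modify KEAP1, NRF2 accumulates, pairs with a small MAF protein and binds antioxidant response elements near its targets. Those targets import cystine (Slc7a11), build glutathione from it (Gclc, Gclm), reduce oxidized glutathione (Gsr), run the thioredoxin and peroxiredoxin cycle (Txnrd1, Prdx1, Srxn1) and detoxify quinones and heme (Nqo1, Hmox1).

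The study asked how loss of the ARF tumor suppressor changes translation. It compared WT-shSCR MEFs (wild type, control hairpin), WT-shARF MEFs (wild type, hairpin against Arf) and Arf-/- -shSCR MEFs (Arf knockout, control hairpin), each by RNAseq and by ribosome profiling with 2 replicates. Ribosome profiling sequences the mRNA fragments that ribosomes shield from nuclease. TE, the translation efficiency, is the footprint level of a gene over its RNA level. All levels here are relative to the library, and the study did not normalize to its yeast spike-in. The paper reports more total protein synthesis in Arf-/- MEFs by polysome profiling and puromycin incorporation. A lower footprint level below is thus a lower share of all footprints, and absolute amounts were not measured. All cells were at passage 4, received a lentiviral hairpin and, per the methods, puromycin. The knockout allele carries a neo cassette in place of exon 1β of Cdkn2a, so that INK4A, the other product of the gene, is kept. The labels give strain C57BL/6J for wild type and B6.129X1-Cdkn2atm1Cjs/KaiJ for knockout MEFs, whereas the methods give B6129SF2/J for wild type, and strain and knockout cannot be told apart here. Nothing states whether replicates came from separate cultures, so p-values measure only the spread between these libraries, which may be technical. With 2 libraries against 2, an exact permutation test of a single gene cannot go below p = 0.33, and the tests below come from edgeR's model across all genes.

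The RNAseq libraries held 1578627 to 3989908 reads on genes and the ribosome profiling libraries 2544319 to 5157572. Cdkn2a went against 1 label: its RNA level in the libraries labelled WT-shARF was 627 and 654 CPM (counts relative to library size, after TMM scaling), against 43.8 and 41.0 CPM in WT-shSCR MEFs and 27.1 and 31.5 CPM in Arf-/- -shSCR MEFs. Its footprints were 540 and 770 CPM under that label, against 95.1 and 67.0 CPM in WT-shSCR MEFs and 41.7 and 36.0 CPM in Arf-/- -shSCR MEFs. The paper shows the knockdown of ARF by immunoblot and states that this hairpin leaves INK4A expression unaffected. The counts here do not separate ARF from INK4A, so the knockdown is called by its label throughout. The 10 fibroblast markers summed to between 15888 and 24218 CPM of RNA in every library and none was at 0, which fits the labelled cell type. A list of 13 macrophage markers was also detected and differed between the groups, as given beside Hmox1. Epithelial or mesothelial markers, 8 genes, summed to 155 to 177 CPM of RNA in Arf-/- -shSCR MEFs against 89.8 to 92.7 CPM in WT-shSCR MEFs.

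The antioxidant response element is the sequence through which NRF2 acts, so its core was searched for as TGACNNNGC on both strands of the RefSeq promoter windows (GRCm38.p6, 250 bases before to 50 bases after a start site). Of the 10 members, 7 had a window, and 5 of those 7 held a match in at least 1 window, while 14% of the 27025 genes in the same table and 12.4% of its 32851 windows did. Hmox1, Gclc and Gsr had no window in the table. The matches are printed on the strand of the motif, with the core in capitals and 8 flanking bases on each side, because they show how the flanks and the 3 free bases differ among members.
Nfe2l2: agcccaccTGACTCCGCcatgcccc
Srxn1: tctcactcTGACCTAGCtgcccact
Gclm: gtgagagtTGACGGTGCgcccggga
Prdx1: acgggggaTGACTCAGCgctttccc
Txnrd1: tgtcagaaTGACAAAGCaaaaatcc

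In order, these lie at chr2:75704887-75704911, chr2:152105544-152105568, chr3:122245415-122245439, chr4:116685458-116685482 and chr10:82859106-82859130. The Nfe2l2 match is on the strand of the gene and the other 4 are on the opposite strand. The cores begin 240 bases before the start site in Nfe2l2, 134 in Gclm, 133 in Prdx1 and 92 in Txnrd1, where 1 of 3 windows held it, and that of Srxn1 begins past its start site. Nqo1 and Slc7a11 had no such letters in their windows, which says only that they are not in those 300 bases. With an A required after the core, 1 of the 7 members still matched, against 3.45% of genes. A match is a description of the letters and not a measured NRF2 site.

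Across genes, levels were compared as CPM per kilobase of coding sequence. In WT-shSCR MEFs, Prdx1 had the highest RNA level of the set (786 CPM per kilobase), followed by Txnrd1 (168), Hmox1 (115), Nfe2l2 (41.1), Gsr (32.7), Srxn1 (25.5), Gclm (25.2), Gclc (16.2), Nqo1 (9.85) and Slc7a11 (1.30). The replicates overlapped between Nfe2l2 and Gsr, Gsr and Srxn1, Srxn1 and Gclm, and Gclc and Nqo1, so those neighbours were not separated beyond their spread. Together, Prdx1 and Txnrd1 took 66.1% to 74.3% of the RNA reads on the 10 members and 72.9% to 80.7% of the footprints. The set as a whole took 0.0847% to 0.116% of all RNA reads on genes and 0.158% to 0.217% of all footprints.

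The footprint order differed in part. In WT-shSCR MEFs, Prdx1 again led, at 2034 CPM per kilobase, and Hmox1 (259) and Txnrd1 (246) overlapped behind it. They were followed by Nfe2l2 (55.6) and Gclm (51.5), which overlapped, Srxn1 (34.4), then Gsr (23.5) and Nqo1 (20.4), which overlapped, Gclc (11.1) and Slc7a11 (5.15). In the libraries labelled WT-shARF and in Arf-/- -shSCR MEFs Prdx1 stayed first and Slc7a11 last in both assays. By footprints in Arf-/- -shSCR MEFs, Hmox1 stood below Txnrd1, at 122 against 204 CPM per kilobase, with no overlap.

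**Figure D1:**
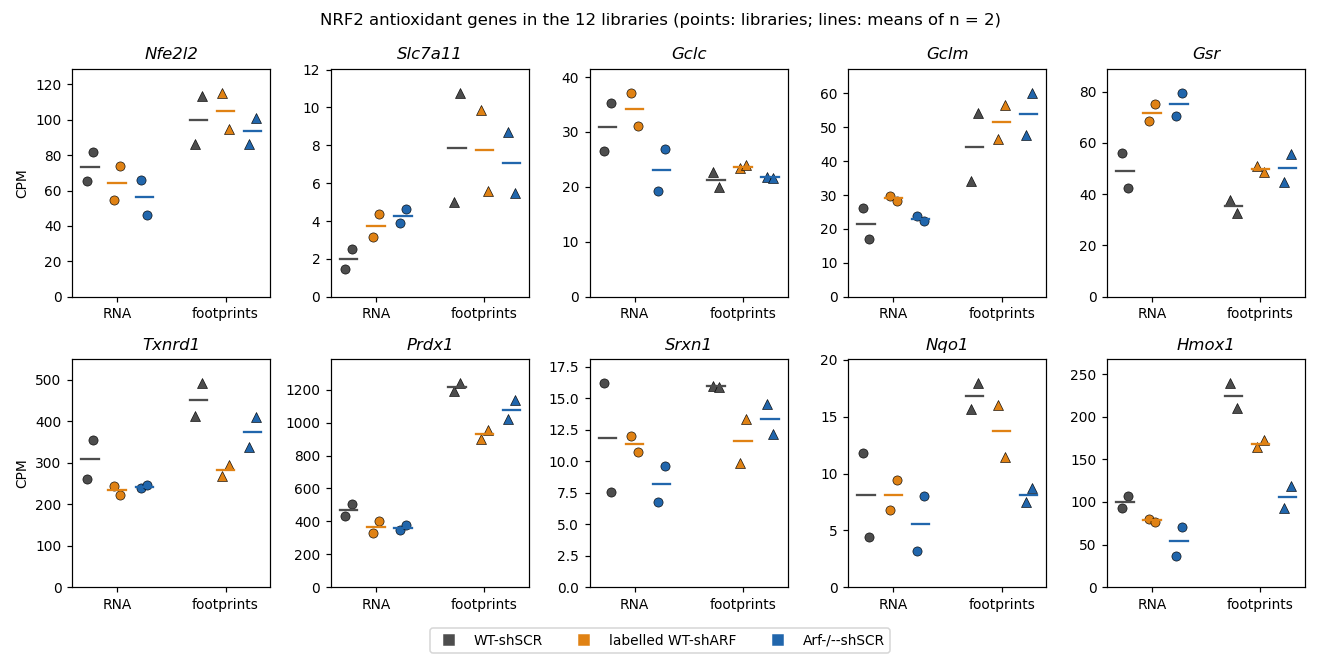
Levels of the 10 NRF2 antioxidant genes in CPM (vertical axes from 0, scaled per gene), by assay and group. Circles are RNAseq and triangles ribosome profiling libraries, lines are means of 2 libraries, and Hmox1 shows the steepest fall, from 239 and 210.5 CPM of footprints in WT-shSCR to 92.6 and 118 CPM in Arf-/- -shSCR MEFs.

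Nfe2l2 itself (chr2, 75675513 to 75704641, minus strand, in the GENCODE M21 annotation of GRCm38) passed the test in no comparison. Its RNA level was 65.1 and 82.0 CPM in WT-shSCR MEFs, 54.9 and 73.8 CPM in those labelled WT-shARF and 65.9 and 46.2 CPM in Arf-/- -shSCR MEFs. Its footprints were 86.1 and 113 CPM, 115 and 95.02 CPM, and 86.4 and 101 CPM in the same order. All 3 groups overlapped in both assays. The log2 fold change of RNA against WT-shSCR was -0.38 (standard error 0.22, adjusted p = 0.336; adjusted p-values here are Benjamini-Hochberg values of the edgeR quasi-likelihood test) in Arf-/- -shSCR MEFs and -0.16 (0.20, adjusted p = 0.709) in the libraries labelled WT-shARF. The footprint differences, -0.12 and 0.06, were smaller than their standard errors of 0.16 in both, and turned to 0.09 without WT-shSCR replicate 2 and to -0.14 without replicate 1. NRF2 is controlled mainly by protein stability, which neither assay reads.

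Slc7a11 (chr3, 49892526 to 50443614, minus strand) encodes xCT, the subunit of the cystine-glutamate exchanger that carries cystine into the cell. It was the scarcest member, with 4 and 4 RNA reads in WT-shSCR MEFs, 6 and 19 in the libraries labelled WT-shARF and 11 and 11 in Arf-/- -shSCR MEFs. These are 1.47 and 2.52 CPM, 3.13 and 4.36 CPM, and 3.92 and 4.62 CPM. The RNA values of both other groups lay above those of WT-shSCR MEFs, but at this depth the rise of 1.14 on the log2 scale in Arf-/- -shSCR MEFs had a standard error of 0.74 (edgeR adjusted p = 0.382), and in the libraries labelled WT-shARF the gene fell under the expression filter and was not tested. Its footprints were 5.003 and 10.8 CPM in WT-shSCR MEFs, 9.86 and 5.60 CPM in those labelled WT-shARF and 8.70 and 5.46 CPM in Arf-/- -shSCR MEFs. The footprint groups overlapped fully, and the log2 differences from WT-shSCR were -0.17 (standard error 0.52) in the knockout and -0.06 (0.55) under the WT-shARF label, turning to 0.47 and 0.59 without WT-shSCR replicate 2. A change of Slc7a11 was therefore not detectable at this depth in either assay.

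Gclc and Gclm encode the catalytic and modifier subunits of glutamate-cysteine ligase, the first enzyme of glutathione synthesis. Gclc RNA was 26.5 and 35.3 CPM in WT-shSCR MEFs, 37.1 and 31.2 CPM in those labelled WT-shARF and 19.2 and 26.9 CPM in Arf-/- -shSCR MEFs, and its footprints stayed between 19.9 and 23.9 CPM in all 6 libraries. Gclm RNA was 26.1 and 17.0 CPM, 29.8 and 28.2 CPM, and 23.9 and 22.3 CPM, with footprints of 34.0 and 54.2 CPM, 46.4 and 56.7 CPM, and 47.7 and 60.1 CPM. Neither subunit passed the test against WT-shSCR in any assay. The log2 changes of Gclc RNA were -0.41 (standard error 0.30) in the knockout and 0.15 (0.25) under the WT-shARF label, and those of Gclm RNA 0.06 (0.31) and 0.38 (0.28). Although the subunits work as a pair, Gclm carried more footprints per RNA read than Gclc, as the TE levels below show.

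Gsr, glutathione reductase, which returns oxidized glutathione to its reduced form with NADPH, was the member whose values lay higher in both ARF groups and both assays. Its RNA was 55.9 and 42.3 CPM in WT-shSCR MEFs, 68.4 and 75.2 CPM in those labelled WT-shARF and 70.5 and 79.4 CPM in Arf-/- -shSCR MEFs. Its footprints were 37.7 and 32.7 CPM, 50.8 and 48.5 CPM, and 44.7 and 55.6 CPM. Neither ARF group overlapped WT-shSCR in either assay. The log2 fold changes were 0.59 (standard error 0.21, adjusted p = 0.104) for RNA and 0.47 (0.20, adjusted p = 0.109) for footprints in Arf-/- -shSCR MEFs. Under the WT-shARF label they were 0.53 (0.20, adjusted p = 0.105) and 0.47 (0.22, adjusted p = 0.173). None of the 4 passed edgeR's threshold. Without WT-shSCR replicate 1 the RNA difference under the WT-shARF label was called (0.78, adjusted p = 0.0431), and without replicate 2 it was 0.36 (adjusted p = 0.375). All 4 differences share their control libraries within an assay. Groups that do not overlap are common here: 25.4% of the genes tested lay higher without overlap for RNA of the knockout, and 30.7% for its footprints, with 24.9% and 26.6% under the WT-shARF label.

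Txnrd1, cytosolic thioredoxin reductase, which keeps thioredoxin reduced, had its fewest footprints under the WT-shARF label. RNA was 262 and 354 CPM in WT-shSCR MEFs, 244 and 222 CPM in those labelled WT-shARF and 238 and 246 CPM in Arf-/- -shSCR MEFs. Footprints were 412 and 491 CPM, 268 and 296 CPM, and 339 and 409.9 CPM. The lowest footprint values were thus in the libraries labelled WT-shARF, with Arf-/- -shSCR MEFs between them and WT-shSCR and no overlap among the 3 groups. Footprints fell by 0.69 on the log2 scale (standard error 0.10, edgeR adjusted p = 5.32e-06) under the WT-shARF label and by 0.31 (0.10, adjusted p = 0.0383) in the knockout. With no filter the knockout difference was not called. The knockout call was lost without WT-shSCR replicate 1 (-0.42, adjusted p = 0.222) and replicate 2 (-0.17, adjusted p = 0.538), fits in which edgeR called 0 genes in all, without Arf-/- -shSCR replicate 1 (-0.17, adjusted p = 0.512) and with DESeq2 (adjusted p = 0.137). RNA differed by -0.40 (0.15, adjusted p = 0.0899) and -0.35 (0.16, adjusted p = 0.213), and the call for RNA under the WT-shARF label was gained without WT-shSCR replicate 1 (-0.60, adjusted p = 0.00894), while without replicate 2 the difference was -0.18.

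Prdx1, an abundant peroxiredoxin that removes hydrogen peroxide with electrons from thioredoxin, had lower footprint values in both ARF groups. Its RNA was 434 and 505 CPM in WT-shSCR MEFs, 327 and 404 CPM in those labelled WT-shARF and 349 and 375 CPM in Arf-/- -shSCR MEFs. Footprints were 1190.4 and 1238 CPM, 903 and 956 CPM, and 1020.3 and 1137 CPM. Both ARF groups lay below WT-shSCR without overlap in each assay. Footprints under the WT-shARF label fell by 0.40 (standard error 0.07, edgeR adjusted p = 0.000159), a call that held under every alternative tried, as did that of Txnrd1. In the knockout the footprint difference of -0.21 (0.08) missed the threshold (adjusted p = 0.0554), though it passed without Arf-/- -shSCR replicate 2 (-0.28, adjusted p = 0.048) and was -0.12 without replicate 1. The RNA differences, -0.38 (0.15) in the knockout and -0.36 (0.14) under the WT-shARF label, had adjusted p-values of 0.133 and 0.111. Without WT-shSCR replicate 1 the latter was -0.46 (adjusted p = 0.0498).

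Srxn1 encodes sulfiredoxin, which repairs over-oxidized peroxiredoxins. It was measured with few reads: 16.2 and 7.57 CPM of RNA in WT-shSCR MEFs, 12.02 and 10.8 CPM in those labelled WT-shARF and 6.77 and 9.66 CPM in Arf-/- -shSCR MEFs. Footprints were 16.0 and 15.9 CPM, 9.86 and 13.4 CPM, and 14.6 and 12.1 CPM. The footprint values of both ARF groups lay below the WT-shSCR pair, but the log2 differences, -0.46 (standard error 0.38) under the WT-shARF label and -0.29 (0.35) in the knockout, were close to their errors and neither was called.

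Nqo1, a quinone reductase and a classical readout of NRF2, was also scarce in RNA. It was at 11.8 and 4.42 CPM in WT-shSCR MEFs, 6.79 and 9.40 CPM in those labelled WT-shARF and 3.21 and 7.98 CPM in Arf-/- -shSCR MEFs, and these groups overlapped. Footprints were 15.7 and 17.9 CPM, 16.1 and 11.4 CPM, and 7.48 and 8.70 CPM. By footprints, the knockout pair stood apart at the low end, a fall of 1.08 on the log2 scale (standard error 0.39, edgeR adjusted p = 0.047). This call rests on 37 and 43 reads in the knockout against 47 and 45 in the control, in libraries of unequal depth. It was lost with DESeq2 (adjusted p = 0.215), with no filter and when any 1 library was left out. The difference stayed at -0.97 to -1.19 in those 4 fits, and the fits without a WT-shSCR replicate called 0 genes in all. The RNA difference was -0.63 (0.58) in the knockout and -0.05 (0.49) under the WT-shARF label, and both turned positive without WT-shSCR replicate 1 (0.31 and 0.91).

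Hmox1, heme oxygenase 1, which breaks heme down to biliverdin, iron and carbon monoxide, had the lowest adjusted p of the set in the knockout. Its RNA was 92.7 and 107 CPM in WT-shSCR MEFs, 79.9 and 77.0 CPM in those labelled WT-shARF and 36.7 and 71.0 CPM in Arf-/- -shSCR MEFs. Footprints were 239 and 210.5 CPM, 164 and 172 CPM, and 92.6 and 118 CPM. In both assays the groups stepped down in that order with no overlap, although the RNA replicates of the knockout were far apart. In Arf-/- -shSCR MEFs RNA fell by 0.89 (standard error 0.25, edgeR adjusted p = 0.0314) and footprints by 1.13 (0.13, adjusted p = 1.41e-07), to 0.458 of the WT-shSCR footprint level. Under the WT-shARF label footprints fell by 0.43 (0.11, adjusted p = 0.0103), while the RNA difference of -0.34 (0.17) was not called (adjusted p = 0.256).

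These Hmox1 calls depended on single libraries to different degrees. The RNA difference of the knockout was -0.48 without Arf-/- -shSCR replicate 1 (adjusted p = 0.286) and -1.43 without replicate 2 (adjusted p = 2.71e-05), and it also lost its call without either WT-shSCR replicate (adjusted p = 0.159 and 0.264) and with DESeq2 (0.114). The footprint difference stayed between -0.95 and -1.31 when single libraries were left out, with adjusted p = 0.117 and 0.0989 when a WT-shSCR replicate was missing, fits in which edgeR called 0 genes in all, with 2467 and 2553 at an unadjusted p under 0.05. The footprint call under the WT-shARF label was lost without WT-shSCR replicate 1 (-0.35, adjusted p = 0.0998) and without either WT-shARF replicate (adjusted p = 0.116 and 0.0846).

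Heme oxygenase 1 is abundant in macrophages, and macrophage markers moved in the same order as Hmox1. The 13 markers summed to 578 and 577 CPM of RNA in WT-shSCR MEFs, 298 and 218 CPM in those labelled WT-shARF and 61.6 and 96.2 CPM in Arf-/- -shSCR MEFs. Their footprints summed to 771 and 745 CPM, 332 and 282 CPM, and 59.9 and 71.8 CPM. No marker was at 0 in both replicates of any group, and Lyz2, lysozyme, the most abundant in WT-shSCR MEFs, had 360.3 to 362 CPM of footprints there and 19.6 to 31.4 CPM in the knockout. In the knockout 11 of 13 markers tested fell by RNA (median log2 -2.83) and 11 of 11 by footprints (median -3.45), and under the WT-shARF label 4 of 13 and 7 of 12 did (medians -0.90 and -0.97). In bulk libraries, fewer cells of a type and less RNA per cell cannot be told apart, and the part of these cells in the Hmox1 result was not tested.

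**Figure D2:**
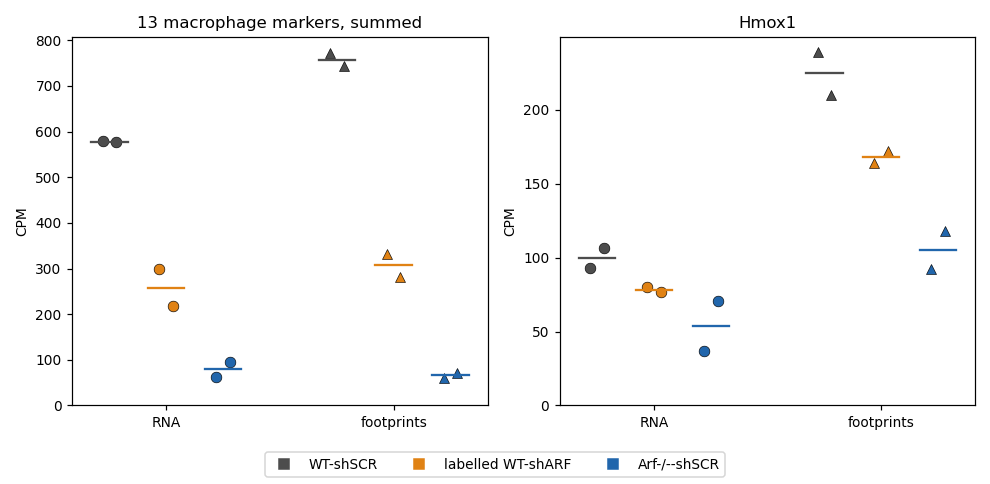
Summed level of 13 macrophage markers (left) and level of Hmox1 (right), in CPM from 0, by assay and group, with circles for RNAseq and triangles for ribosome profiling libraries and lines for means of 2. Both step down from WT-shSCR through the libraries labelled WT-shARF to Arf-/- -shSCR MEFs, the markers from 771 and 745 to 59.9 and 71.8 CPM of footprints and Hmox1 from 239 and 210.5 to 92.6 and 118 CPM.

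Over the set, few members passed the test. For RNA, 1 of 10 was called in Arf-/- -shSCR MEFs against WT-shSCR, with 7.93% of all genes tested called, and 0 of the 9 tested under the WT-shARF label, with 7.28% called. In the latter, 3 members had an unadjusted p under 0.05 in edgeR, as did 21.1% of genes. DESeq2 called 0 members there, with an adjusted p for 5037 genes against 10503 in edgeR. For footprints, 3 of 10 were called lower in the knockout (Hmox1, Nqo1 and Txnrd1), with 8.95% of genes called lower, and 3 of 10 under the WT-shARF label (Hmox1, Prdx1 and Txnrd1), with 5.5% called lower. Members that lay below WT-shSCR without overlap were 3 for RNA and 5 for footprints in the knockout, with 26.1% and 26.9% of all genes, and 3 and 4 under the WT-shARF label, with 24.8% and 24.9%. No member was called higher in any comparison with WT-shSCR. The median log2 change over the members tested was -0.38 for RNA and -0.19 for footprints in the knockout, and -0.14 and -0.19 under the WT-shARF label, with the median over all genes tested at 0.00 in each. The lower footprint calls were few, and those shared between the comparisons rest on the same WT-shSCR libraries.

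The 2 ARF groups were also compared directly, without the shared controls. By footprints, Hmox1 was lower in Arf-/- -shSCR MEFs than in the libraries labelled WT-shARF by 0.70 (log2 -0.70, standard error 0.13, edgeR adjusted p = 0.00179), and Txnrd1 was higher by 0.38 (0.10, adjusted p = 0.0187). Of all genes tested 8.23% were called in that contrast, and 2 of 10 members. Thus Hmox1 had its lowest level in the knockout and Txnrd1 under the WT-shARF label. Without either WT-shARF replicate the differences stayed about as large (-0.71 and -0.69 for Hmox1, 0.33 and 0.44 for Txnrd1), in fits where edgeR called 0 and 1 genes in all, with 1453 and 1643 at an unadjusted p under 0.05, and neither member was called. Txnrd1 also lost its call without Arf-/- -shSCR replicate 2 (0.23, adjusted p = 0.281). By RNA, 0 of 10 members were called, with 2.57% of genes called, and 2 members were at an unadjusted p under 0.05 in edgeR, as were 16.4% of genes. DESeq2 called 0 members there, with an adjusted p for 7902 genes against 10632 in edgeR. Without overlap, 4 members lay lower and 0 higher in the knockout by RNA, with 23.4% and 23.8% of genes, and 3 lower and 2 higher by footprints, with 22.8% and 27.5%. Hmox1 RNA was -0.56 (0.25, adjusted p = 0.277) there, -0.14 (adjusted p = 0.792) without Arf-/- -shSCR replicate 1 and -1.10 (adjusted p = 0.000233) without replicate 2.

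TE levels spanned a wide range among the members. In WT-shSCR MEFs the log2 of footprint over RNA CPM was 1.37 (standard error 0.11) for Prdx1, 1.18 (0.19) for Hmox1, 0.98 (0.26) for Gclm and 0.96 (0.46) for Nqo1. Prdx1 stood at percentile 93.4 to 95.6 of 11603 genes in the 3 groups, and Hmox1 at 86.5 to 90.8. In contrast, Gsr was at -0.50 (0.21) and Gclc at -0.51 (0.27), and Gsr stayed at percentile 28.2 to 31.1. Txnrd1 (0.56, 0.14), Nfe2l2 (0.45, 0.20) and Srxn1 (0.37, 0.39) lay between. Slc7a11 had the highest value in WT-shSCR MEFs, 2.02, but with a standard error of 0.70, since it rests on 4 and 4 RNA reads, and it was 0.96 (0.59) and 0.73 (0.58) in the other groups.

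Within the glutathione enzymes, Gclm thus had a TE level of 0.98, 0.84 and 1.22 and Gclc of -0.51, -0.51 and -0.08 in WT-shSCR, labelled WT-shARF and Arf-/- -shSCR MEFs. No TE change of a member was called in any comparison. Of all genes tested, 0.194% were called in the knockout, 0.0354% under the WT-shARF label and 0.043% in the direct contrast. DESeq2 called 0 members in each, but gave an adjusted p to only 1616, 912 and 923 genes in that order. A member without one could not be called there. At an unadjusted p under 0.05 in edgeR stood 0 of 10 members in all 3, with 6.83%, 6.65% and 7.57% of genes. The TE difference of the knockout was 0.01 (standard error 0.20) for Txnrd1, 0.14 (0.16) for Prdx1, -0.26 (0.30) for Hmox1 and 0.22 (0.28) for Nfe2l2, so the footprint calls of Hmox1 and Txnrd1 had no TE call beside them. Without Arf-/- -shSCR replicate 2 of the RNAseq libraries that of Hmox1 was 0.30, and without WT-shSCR replicate 2 of the RNAseq libraries that of Txnrd1 was -0.21. For Slc7a11 the TE difference of the knockout was -1.35 (0.94), the widest error of the set. Under the WT-shARF label the TE difference was -0.28 (0.19) for Txnrd1, -0.03 (0.16) for Prdx1 and -0.08 (0.21) for Hmox1. In the direct contrast that of Txnrd1 was 0.33 (0.17). The median over the members was 0.07 in the knockout, -0.11 under the WT-shARF label and 0.12 in the direct contrast. Over all genes tested it was -0.04, 0.01 and 0.00.

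**Figure D3:**
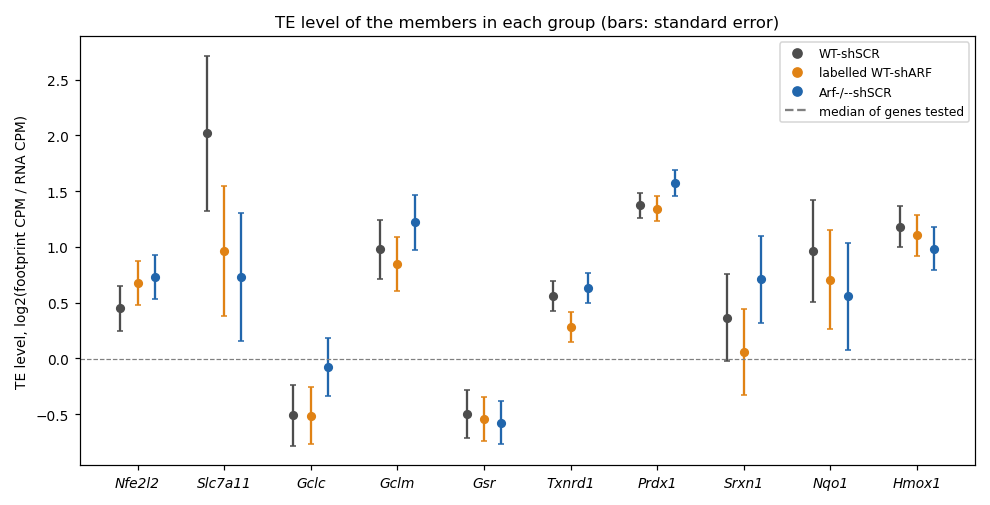
TE level of each member as log2 of footprint CPM over RNA CPM (vertical axis) in the 3 groups, with bars for the standard error and a dashed line for the median of the genes tested. Prdx1 sits at 1.34 to 1.57 and Gsr at -0.58 to -0.50 in the 3 groups, while Slc7a11 has the longest bars.

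A wider set of 132 genes of the NRF2, glutathione, thioredoxin, NADPH, iron and detoxification pathways, in 7 lists, gives the surroundings of the members. In Arf-/- -shSCR MEFs, RNA of 1 gene rose and of 13 fell among 105 tested (median -0.27), and footprints of 10 rose and of 21 fell among 109 (median -0.15). Under the WT-shARF label, RNA of 0 rose and of 13 fell among 105 (median -0.28), and footprints of 2 rose and of 11 fell among 105 (median -0.07). Counted over all genes tested, 3.94% rose and 3.99% fell by RNA in the knockout, 9.57% and 8.95% by footprints, 3.11% and 4.17% by RNA under the WT-shARF label, and 5.63% and 5.5% by footprints. The RNA calls in these lists were thus mostly falls in both comparisons, which share their control libraries. Fits with single libraries left out are given for the members only, so how far the calls below rest on 1 library is not shown.

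Among the regulators and partners of NRF2, 15 genes, RNA of 0 rose and of 1 fell in the knockout and of 0 rose and 3 fell under the WT-shARF label, and footprints of 2 rose and 4 fell and of 0 rose and 3 fell. Maff, among the falls by footprints in both comparisons, fell by RNA under the WT-shARF label. MAFF is a small MAF protein that pairs with NRF2. Its RNA was 43.8 and 41.6 CPM in WT-shSCR MEFs, 15.2 and 23.2 CPM in those labelled WT-shARF and 26.7 and 29.0 CPM in Arf-/- -shSCR MEFs. Under that label it fell by 1.11 by RNA (standard error 0.26, edgeR adjusted p = 0.00623) and by 1.21 by footprints (0.22, adjusted p = 0.000262). Bach1, a repressor that competes with NRF2 at antioxidant response elements, had footprints of 38.4 and 36.3 CPM in WT-shSCR MEFs, 21.9 and 16.2 CPM in those labelled WT-shARF and 39.4 and 45.1 CPM in Arf-/- -shSCR MEFs. The lowest Bach1 values were those under the WT-shARF label, and the direct contrast gave 1.15 higher footprints in the knockout (0.23, adjusted p = 0.00342).

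In the list of glutathione synthesis and use, 40 genes of which 26 were tested for RNA, 2 fell in the knockout and 3 under the WT-shARF label, and none rose. By footprints 1 rose and 3 fell in the knockout and 3 fell under the WT-shARF label. Gss, glutathione synthetase, which completes glutathione, had 92.4 and 102 CPM of RNA in WT-shSCR MEFs, 59.0 and 51.3 CPM in those labelled WT-shARF and 50.6 and 60.1 CPM in Arf-/- -shSCR MEFs. It was called lower by RNA and by footprints in both comparisons, and by RNA it fell by 0.83 under the WT-shARF label (standard error 0.18, edgeR adjusted p = 0.00416). By footprints Mgst3, a microsomal glutathione transferase, fell by 1.49 under that label (0.36, adjusted p = 0.0055), from 27.7 and 21.5 CPM to 8.40 and 9.27 CPM. Gstt3, a theta-class glutathione transferase, fell by 1.90 in the knockout (0.68, adjusted p = 0.0469), from 7.34 and 8.37 CPM to 3.44 and 0.809 CPM, on 17 and 4 reads.

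The thioredoxin and peroxiredoxin list held 21 genes, all tested, of which 5 fell by RNA in the knockout and 3 under the WT-shARF label, while by footprints 3 rose and 6 fell in the knockout and 3 fell under that label. Sesn2, a sestrin, had 37.9 and 49.8 CPM of RNA in WT-shSCR MEFs, 41.3 and 43.3 CPM in those labelled WT-shARF and 18.5 and 22.3 CPM in Arf-/- -shSCR MEFs. It fell by 1.09 in the knockout against WT-shSCR (standard error 0.27, edgeR adjusted p = 0.0157) and by 1.07 against the libraries labelled WT-shARF (0.24, adjusted p = 0.0298), and by footprints it was lower by 0.75 in that direct contrast (log2 -0.75, standard error 0.20, adjusted p = 0.0261). The low Sesn2 level was therefore particular to the knockout among these 3 groups. Sesn3, its paralog, fell by 1.72 in the knockout by RNA (0.49, adjusted p = 0.0342) and by 1.11 by footprints (0.39, adjusted p = 0.0451). Msrb1, a methionine sulfoxide reductase, fell by 0.79 by RNA under the WT-shARF label (0.23, adjusted p = 0.0328). It was also called lower by footprints in the knockout.

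Of the 12 genes in the list of NADPH supply, 1 rose by RNA in the knockout and 1 fell under the WT-shARF label. By footprints 2 rose and 3 fell in the knockout and 2 rose under the WT-shARF label. Idh2, mitochondrial isocitrate dehydrogenase, was among the rises. Its RNA was 131 and 133 CPM in WT-shSCR MEFs, 158 and 184 CPM in those labelled WT-shARF and 224 and 222 CPM in Arf-/- -shSCR MEFs. It rose by 0.76 by RNA (standard error 0.15, edgeR adjusted p = 0.00398) and by 0.82 by footprints (0.14, adjusted p = 7.08e-05) in the knockout, and by 0.63 by footprints under the WT-shARF label (0.15, adjusted p = 0.00397). Mthfd2, a mitochondrial folate enzyme, rose by footprints by 0.55 (0.15, adjusted p = 0.00783) and 0.81 (0.16, adjusted p = 0.000438). In the direct contrast of footprints, Me2, a mitochondrial malic enzyme, was higher in the knockout by 0.65 (0.17, adjusted p = 0.0187), and Pgls, of the pentose phosphate pathway, was at -0.44 (0.13, adjusted p = 0.0478).

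Among 11 genes of heme and iron handling, those next to Hmox1, 2 fell by RNA in the knockout and 3 under the WT-shARF label, and by footprints 0 changed in the knockout and 1 fell under that label. Fth1 gave the only TE call of the 7 lists. FTH1 is the ferritin heavy chain, which stores iron and whose mRNA is held back by iron regulatory proteins when iron is scarce. Fth1 RNA was 267 and 260.5 CPM in WT-shSCR MEFs, 178 and 164 CPM in those labelled WT-shARF and 112 and 102 CPM in Arf-/- -shSCR MEFs, whereas its footprints lay between 102 and 123 CPM in all 6 libraries. In the knockout RNA fell by 1.31 (standard error 0.16, edgeR adjusted p = 2.79e-05) and TE rose by 1.40 (0.20, adjusted p = 0.00223), with no call for footprints. Fth1 RNA was also called lower under the WT-shARF label. Reads of Fth1 that align equally to near-identical processed pseudogenes would be left out by the counting, so its level is uncertain. Under the WT-shARF label, RNA of Slc48a1, a heme transporter, fell by 1.06 (0.29, adjusted p = 0.0199), and footprints of Blvrb, a biliverdin reductase, by 1.27 (0.39, adjusted p = 0.0271). The direct contrast of RNA gave -0.68 for Fth1 (0.15, adjusted p = 0.0247).

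In the detoxification list, 24 genes, 2 fell by RNA in the knockout, and by footprints 2 rose and 2 fell in the knockout and 1 fell under the WT-shARF label. Footprints of Aldh1a1, a retinaldehyde dehydrogenase, were at 2.00 and 0 CPM in WT-shSCR MEFs, 2.92 and 1.29 CPM in those labelled WT-shARF and 15.8 and 11.9 CPM in Arf-/- -shSCR MEFs. The rise in the knockout was 3.61 against WT-shSCR (standard error 0.67, edgeR adjusted p = 0.000144) and 2.78 against the libraries labelled WT-shARF (0.51, adjusted p = 0.00199). It rests on 78 and 59 reads, against 6 and 0 in WT-shSCR and 8 and 6 under the WT-shARF label, so its size is uncertain. Ugdh, which makes UDP-glucuronate, rose by 0.60 by footprints in the knockout (0.14, adjusted p = 0.00167). Cbr1, a carbonyl reductase, fell by 1.20 by footprints under the WT-shARF label (0.27, adjusted p = 0.0027) and was also called lower by footprints in the knockout. Ephx1, an epoxide hydrolase, was called lower in the knockout by RNA and footprints, and was at -0.65 by footprints in the direct contrast (0.16, adjusted p = 0.0149). Ptges, a prostaglandin E synthase, was higher by 3.26 in that contrast (0.83, adjusted p = 0.0192) on few reads, with 0 and 1.08 CPM under the WT-shARF label and 7.89 and 5.26 CPM in the knockout. Footprints of the epithelial or mesothelial markers summed to 195 and 193 CPM in the knockout, against 74.2 and 99.3 CPM under the WT-shARF label. Of these sums, Krt19, a keratin, made up 99.1 to 101.5 CPM and 59.9 to 78.9 CPM. The part of such cells in these results was not tested.

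The list of superoxide and peroxide removal, 9 genes, also held subunits of the NADPH oxidases, which make superoxide. In the knockout 1 fell by RNA and 3 by footprints, and under the WT-shARF label 0 were called in either assay. Ncf1 and Cybb, both of the phagocyte oxidase, fell most in the knockout. Ncf1 RNA was 11.4 and 14.5 CPM in WT-shSCR MEFs and 1.78 and 1.26 CPM in Arf-/- -shSCR MEFs, a fall of 3.02 (standard error 0.60, edgeR adjusted p = 0.00318), with 2.73 by footprints (log2 -2.73, adjusted p = 0.00522). Cybb footprints went from 17.0 and 16.3 CPM to 1.82 and 2.63 CPM (-2.92, standard error 0.51, adjusted p = 6.24e-05). The 11 macrophage markers tested had a median of -3.45 by footprints in the same comparison, and their part in these falls was not tested. Nox4, an NADPH oxidase of non-phagocytic cells, was at 17.5 and 21.5 CPM of footprints under the WT-shARF label and 7.69 and 8.90 CPM in the knockout (-1.27, 0.33, adjusted p = 0.0202).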

How the data were processed

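Per the labels and the methods, the authors clipped adapters (fastx_clipper), split reads by barcode (cutadapt per the labels, a FASTX splitter per the methods), extracted molecular identifiers (UMI-tools), removed noncoding RNA reads (Bowtie2), aligned to mm10 (TopHat) and counted unique alignments on coding sequences (HTSeq). Removal of duplicates by identifier is not given in the sources used here. What they deposited are HTSeq counts of each gene, not normalized. Alignments that were not unique, 79.22% to 81.38% of those in RNAseq and 46.34% to 52.92% in ribosome profiling libraries, were left out by the counting, which can lower genes with near-identical copies. The 5 summary rows of each file, 94.74% to 96.83% of the alignments in RNAseq and 57.12% to 64.82% in ribosome profiling libraries, entered no library size.

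TMM factors (0.960 to 1.10 over the 12 libraries) came from edgeR 4.0.16 (R 4.3.3). Genes were kept by filterByExpr, and RNA and footprints were tested over 4 libraries and TE by an assay-by-condition term over 8, each by the edgeR quasi-likelihood test with Benjamini-Hochberg adjustment over all genes tested and a threshold of 0.05. TE levels came from 1 fit of 12 libraries. Replicates differed beyond sampling noise (chi-square per gene 3.87 to 7.63), so all were counted as separate libraries. Promoter windows and gene positions came from RefSeq GRCm38.p6 and GENCODE M21. Alternatives were DESeq2 1.42.0, RLE factors, no filter, all groups in 1 fit, a replicate block, a longer motif and leaving out each replicate, and, chosen after seeing the data, TMM factors without ribosomal protein genes.

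The members and the lists were chosen with earlier results of these data known. Named beside the 10 members were, per comparison, up to 4 rises and 4 falls of largest log2 fold change among the called genes of the 7 lists, Cdkn2a as the check of labels, the most abundant gene of a marker list, and for Nfe2l2 and Slc7a11 the 3 genes of most similar pattern (at least 10 CPM on average in both assays). Tables and figures were made in Python 3.11.15 with numpy 2.4.6, pandas 2.3.3 and matplotlib 3.10.9.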

Additional observations from a re-analysis of the deposited data

Results flagged for a closer look

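Both results below stand out because the libraries of the ARF groups differed from each other in a direct test of the difference. Hmox1 footprints were lower in Arf-/- -shSCR MEFs than in the libraries labelled WT-shARF (log2 -0.70, standard error 0.13, Benjamini-Hochberg adjusted p = 0.00179 by the edgeR quasi-likelihood test). Txnrd1 footprints were higher in Arf-/- -shSCR MEFs by the same test (log2 0.38, standard error 0.10, adjusted p = 0.0187). With 2 replicates per group, single libraries were not examined as outliers.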

How the results depend on the processing

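Of the values of single members under the alternatives, 955 kept their side of the threshold. These include uncalled values that changed sign while moving by no more than 1 standard error. A missing adjusted p counted as not called. Another 25 lost a call, 11 gained one and 19 changed sign without a call while moving by over 1 standard error. None that was called changed sign. TMM without ribosomal protein genes and RLE factors moved no count by over 1.5 times. Genes called were, first in the reported fit and then with DESeq2, 845 and 414 for RNA in the knockout, 765 and 291 for RNA under the WT-shARF label, 1988 and 1153 for footprints in the knockout, 1147 and 691 for footprints under that label, and 900 and 553 for footprints in the direct contrast. For TE they were 22 and 79, 4 and 55, and 5 and 27 in the order knockout, WT-shARF label, direct contrast. The TE calls of the knockout split into 10 higher and 12 lower in the reported fit, 15 and 12 with RLE factors and 65 and 14 with DESeq2. Without the filter, 617 genes in place of 273 were called for RNA in the direct contrast, and 123, 40 and 77 for TE. All groups in one fit gave 497 for RNA under the WT-shARF label, 52 for TE in the knockout and 0 for TE under the WT-shARF label (edgeR, 771 at an unadjusted p under 0.05, and 55 called by DESeq2). Members called fell with DESeq2 from 1 to 0 for RNA in the knockout and from 3 to 1 for its footprints, where no filter also left 1. The longer motif left 1 of 5 members with a match. The cause of these differences was not tested.

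Deviations of equal replicate numbers correlated at -0.0249 to 0.0241 between groups of an assay and at 0.0181 to 0.0713 between assays of a group. Counting noise weakens such correlations, so these values do not decide whether equal numbers share a culture. With a replicate block, genes called were 827 for RNA in the knockout, 1011 under the WT-shARF label and 188 in the direct contrast. For footprints they were 2075, 1376 and 1109 in that order. With the replicate block, 2 members in place of 0 were called for RNA under the WT-shARF label (Txnrd1 and Prdx1, adjusted p = 0.0303 and 0.0314, edgeR), Prdx1 was called for footprints in the knockout (0.0412), and TE calls were 39 under the WT-shARF label and 8 in the direct contrast.

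Leaving out each replicate gave, for genes called, 222 to 790 (RNA, knockout), 274 to 883 (RNA, WT-shARF label), 6 to 798 (RNA, direct), 0 to 1193 (footprints, knockout), 614 to 1067 (footprints, WT-shARF label), 0 to 781 (footprints, direct), 10 to 57 (TE, knockout), 1 to 41 (TE, WT-shARF label) and 1 to 108 (TE, direct). For members called it gave 0 to 1, 0 to 3, 0 to 1, 0 to 3, 2 to 3 and 0 to 3 for the first 6 of these, and 0 for TE throughout. In these fits the lone library of a group is assumed to vary like the other group. Depth limits Slc7a11, Nqo1 and Srxn1 most, at 4 to 47 RNA reads per library.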

Other observations

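Over the 12 libraries, with log2 CPM centred within each assay, the genes whose pattern was most like that of Nfe2l2 among 7502 were Cript (Pearson r 0.91), Fam98a (0.86) and Fibin (0.85). Those most like Slc7a11 among 7503 were Ibtk, Ap4e1 and Nom1 (0.83 each). The libraries share their depth and preparation within an assay, and these values are descriptions with no test.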
